A study of Mus musculus with 6 samples.

Results

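The vascular endothelial growth factor (VEGF) family comprises 5 ligand genes (Vegfa, Vegfb, Vegfc, Vegfd and Pgf), 3 tyrosine kinase receptor genes (Kdr, Flt1 and Flt4) and 2 neuropilin co-receptor genes (Nrp1 and Nrp2). These 10 genes were taken by symbol from a table of infarcted mouse myocardium, where all 10 were found among 16199 gene symbols. The family was chosen by its log2 differences in this same comparison, which were known from earlier results, Vegfa among them. The values of the members by group are therefore given as a description, with no p-value printed for a single member or for the family. Intervals and counts at a p threshold belong to that description and are not read as tests of the members. The table covers 3 libraries labelled ITIH5 knockdown and 3 wild-type libraries. Both groups are whole myocardium after ligation of the left anterior descending coronary branch, the standard way to cause an infarct in mice, collected 7 days later. The labels used here give no strain, sex or age and do not say how Itih5 was knocked down, nor whether each library stands for another mouse, so the spread between libraries may be technical.

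VEGF-A, the main signal for the growth of new blood vessels, acts chiefly through VEGFR2 (encoded by Kdr) on endothelial cells, while VEGFR1 (Flt1) binds it tightly and signals weakly, so that it also acts as a trap. VEGF-B and placental growth factor (Pgf) bind VEGFR1, whereas VEGF-C and VEGF-D bind VEGFR3 (Flt4), the receptor of lymphatic vessels. Neuropilins hold VEGF on the cell surface beside these receptors. In the heart, muscle cells and macrophages are sources of VEGF-A, and its transcription rises when oxygen falls.

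RefSeq promoter windows (GRCm38.p6, from 250 bases before to 50 bases after a start site) were matched for all 10 members, 12 windows in all. The windows of Vegfa, Vegfd, Kdr and Flt1 are shown because Vegfa, Kdr and Flt1 had the widest range of values across the libraries and Vegfd was the member whose mean was lower in the libraries labelled knockdown. Capitals mark GGGCGG, the GC box bound by Sp1, on either strand.
Vegfa, chr17:46032328-46032627, minus strand: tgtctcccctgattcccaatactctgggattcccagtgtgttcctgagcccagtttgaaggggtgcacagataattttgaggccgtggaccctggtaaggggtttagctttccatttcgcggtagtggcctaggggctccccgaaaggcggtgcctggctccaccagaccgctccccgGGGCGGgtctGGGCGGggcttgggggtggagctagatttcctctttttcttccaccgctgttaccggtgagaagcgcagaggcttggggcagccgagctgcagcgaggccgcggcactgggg
Vegfd, chrX:164373272-164373571, plus strand: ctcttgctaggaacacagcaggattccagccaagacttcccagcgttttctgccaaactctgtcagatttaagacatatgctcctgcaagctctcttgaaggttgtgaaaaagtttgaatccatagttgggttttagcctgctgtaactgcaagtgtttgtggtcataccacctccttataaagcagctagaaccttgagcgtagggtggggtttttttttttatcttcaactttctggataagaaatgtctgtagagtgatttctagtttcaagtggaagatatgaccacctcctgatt
Kdr, chr5:75978406-75978705, minus strand: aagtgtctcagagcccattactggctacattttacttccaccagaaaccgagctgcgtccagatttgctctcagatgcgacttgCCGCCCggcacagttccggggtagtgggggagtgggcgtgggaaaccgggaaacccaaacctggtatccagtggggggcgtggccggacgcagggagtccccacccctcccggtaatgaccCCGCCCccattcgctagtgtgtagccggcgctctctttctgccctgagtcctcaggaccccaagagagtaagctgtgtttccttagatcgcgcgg
Flt1, chr5:147725962-147726261, minus strand: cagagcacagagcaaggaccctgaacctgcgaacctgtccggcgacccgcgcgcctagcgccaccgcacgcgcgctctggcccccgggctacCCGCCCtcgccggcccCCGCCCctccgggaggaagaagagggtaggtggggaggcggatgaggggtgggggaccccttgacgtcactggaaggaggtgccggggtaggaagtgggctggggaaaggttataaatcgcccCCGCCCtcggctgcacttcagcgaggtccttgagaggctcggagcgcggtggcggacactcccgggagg
The GC box was found in 10 of the 12 windows and in 9 of the 10 members, against 35.7% of 32851 mouse promoter windows of the same length. Vegfd was the member without one, and its window had a G and C content of 42%, the lowest of the 12, where the highest was 75.3% (Vegfb). ACGTG, the core of the hypoxia response element, was found on either strand in 1 of the 12 windows, against 19.6% of all windows. That window is at a second start site of Vegfa (chr17:46025114-46025413), inside the span of the gene. Sequence beyond the windows was not searched. TATAAA was found in the windows of Vegfd and Flt1 (13.6% of all windows) and CCGGAA, an ETS site, in that of Kdr (14.9%). No 2 of these motifs overlap in the windows printed. A match is a description of the letters, not a bound site.

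In mm10 coordinates of the GENCODE M21 annotation, all 10 members are protein coding. Vegfa spans positions 46016993 to 46032369 of chromosome 17 (minus strand), and Vegfc spans 54077606 to 54187096 of chromosome 8 (plus strand). Kdr (75932827 to 75978458) and Flt1 (147561604 to 147726011) both lie on the minus strand of chromosome 5. The annotation lists 8 protein-coding transcripts for Vegfa and 2 for Flt1. The table holds 1 value per gene, so the isoforms of VEGF-A and the soluble and membrane forms of VEGFR1 could not be told apart.

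Values are on a TPM-like scale. TPM is a length-corrected share of the library, but whether these values are length-corrected, and how they were adjusted, is not stated. At the low end the values come in steps of between 0.895 and 1.16, depending on the library. The replicate 1 library labelled knockdown stood apart. Mitochondrially encoded genes took 32.6% of its summed values, against 14.8% and 20.2% in the other libraries labelled knockdown and 13.8%, 11.5% and 10.9% in wild type. Its heart muscle markers summed to 32393, against between 9404 and 17991 in the other libraries labelled knockdown and between 10303 and 12224 in wild type. The log2 differences of the members, the counts over the family, the order of their levels and the counts of the pathway lists are therefore also given without it. Replicate 2 labelled knockdown stood apart too for adipocyte genes, with Adipoq at 0.453, 0.827 and 84.8 in the libraries labelled knockdown, against 29.1, 91.3 and 45.5 in wild type. Itih5 was not lower in the libraries labelled knockdown, at 18.4, 10.5 and 19.96, against 9.73, 13.1 and 17.2 in wild type (log2 difference 0.26, 95% interval -0.39 to 0.90), so every direction below refers to the labels.

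Of the 14025 genes tested with limma, 0 were called after Benjamini-Hochberg adjustment at 0.05 (0% higher and 0% lower), and therefore 0 of the 10 members. Before adjustment, 1162 genes (8.29%) were higher at a p under 0.05, 2 members among them, and 919 genes (6.55%) were lower, with 0 members. The smallest adjusted p was 0.296. All 3 libraries labelled knockdown lay above all 3 of wild type for 2 of the 10 members, Vegfa and Vegfc, where 12.6% of all tested genes did so. They lay below wild type for 0 members, where 9.88% of genes did, so that 22.4% of all tested genes had groups without overlap in either direction. The rule for choosing the family used this comparison, so nothing is read from these counts.

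**Figure D1:**
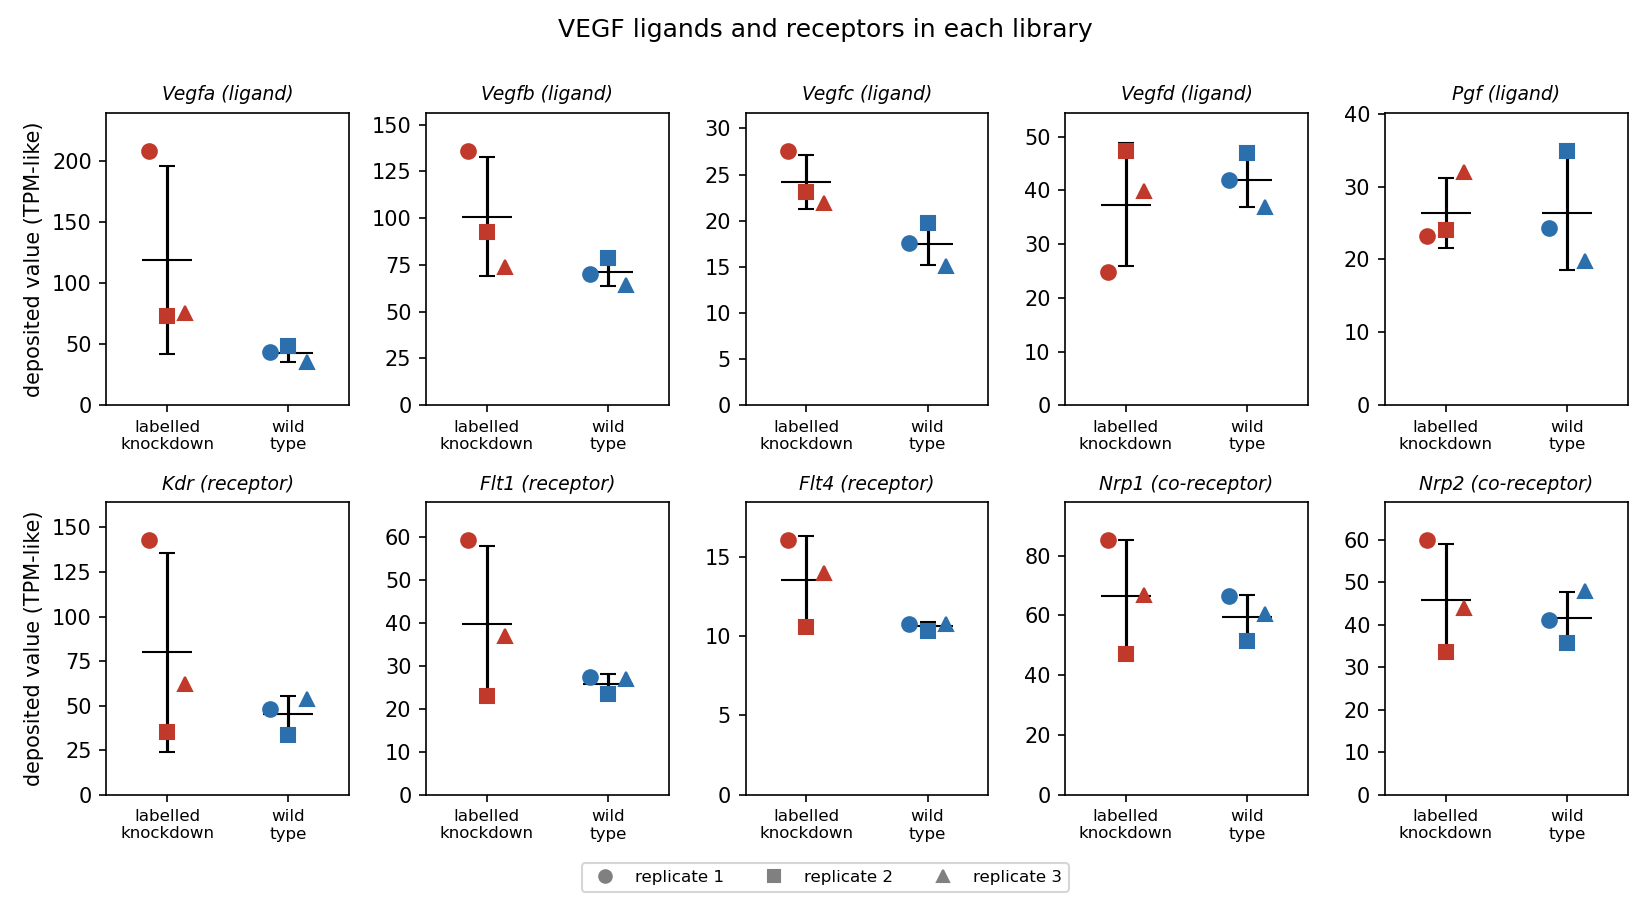
Deposited TPM-like value of each member (vertical axes, from 0) in the 3 libraries labelled knockdown (red, left) and the 3 wild-type libraries (blue, right), with marker shapes for replicates and black bars for the mean and SD. Vegfa and Vegfc are the members whose groups do not overlap, and replicate 1 labelled knockdown is the highest library for 8 of the 10 members.

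Among the ligands, Vegfa showed the widest separation between the groups. Vegfa was at 208, 73.0 and 75.9 in libraries labelled knockdown 1, 2 and 3, against 43.9, 48.7 and 35.2 in wild type. The groups did not overlap, and replicate 1 labelled knockdown was far above the other libraries. The means were 119 ± 77.3 (SD, n = 3) in the libraries labelled knockdown and 42.6 ± 6.85 (SD, n = 3) in wild type, a 2.80-fold ratio. On the log2(value + 1) scale, the difference (libraries labelled knockdown minus wild-type libraries) was 1.29 (SE 0.39, 95% interval 0.38 to 2.21). Without replicate 1 labelled knockdown it was 0.80 (SE 0.15), with a mean of 74.4 in the other libraries labelled knockdown. The lowest library labelled knockdown lay 24.4 above the highest wild-type library, many times the rounding step.

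Vegfc, the main ligand of lymphatic vessel growth, was the other member without overlap. Its values were 27.5, 23.1 and 21.96 in the libraries labelled knockdown, against 17.6, 19.7 and 15.1 in wild type. The log2 difference was 0.45 (SE 0.13, 95% interval 0.14 to 0.76), and 0.36 (SE 0.13) without replicate 1 labelled knockdown. The gap between the groups was narrow: with each value divided by the step of its library, the lowest library labelled knockdown was at 22.0 steps and the highest wild-type library at 21.1 steps, so the groups were 0.94 steps apart.

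Vegfb, whose product is abundant in heart muscle, was at 136, 92.4 and 73.8 in the libraries labelled knockdown, against 70.3, 78.9 and 64.4 in wild type. Replicate 3 labelled knockdown fell inside the wild-type range, so the groups overlapped. The log2 difference was 0.45 (SE 0.21), and 0.22 (SE 0.14) without replicate 1 labelled knockdown.

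Vegfd was the only member with a lower mean in the libraries labelled knockdown. It was at 24.9, 47.3 and 39.9 there, against 41.97, 46.96 and 36.99 in wild type. Replicate 1 labelled knockdown, the highest library for Vegfa, was the lowest for Vegfd, while the other libraries labelled knockdown held values within or just above the wild-type range. The log2 difference was -0.20 (SE 0.23) with all 6 libraries and 0.06 (SE 0.13) without that library. Pgf was at 23.2, 24.1 and 31.9 in the libraries labelled knockdown, against 24.4, 34.9 and 19.8 in wild type. The values of the libraries labelled knockdown all lay inside the wild-type range, and the log2 difference was 0.03 (SE 0.22, 95% interval -0.48 to 0.54), and 0.11 (SE 0.24) without replicate 1 labelled knockdown.

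Shares within a library do not depend on a single scaling factor per library. The adjustment of the deposited values is not known to be such a factor, and shares would not remove one that differs between genes. Replicate 1 labelled knockdown held 1077 values above 0 and under 0.2, below its own rounding step, where every other library held 0. Vegfa made up 49.6%, 28.1% and 31.2% of the summed values of the 5 ligands in the libraries labelled knockdown, against 22.1%, 21.2% and 20.5% in wild type. The wild-type libraries lay within a narrow band, and every library labelled knockdown was above it. The share of Vegfd was 5.93%, 18.2% and 16.4% in the libraries labelled knockdown, against 21.2%, 20.5% and 21.6% in wild type, lower without overlap. A share falls when another ligand takes more of the sum, and the shares of Vegfb, Vegfc and Pgf overlapped between the groups. The ratio of Vegfa to Vegfb was 1.53, 0.790 and 1.03 in the libraries labelled knockdown, against 0.624, 0.617 and 0.546 in wild type. In no wild-type library did Vegfa reach Vegfb, and it exceeded Vegfb in replicates 1 and 3 labelled knockdown.

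**Figure D2:**
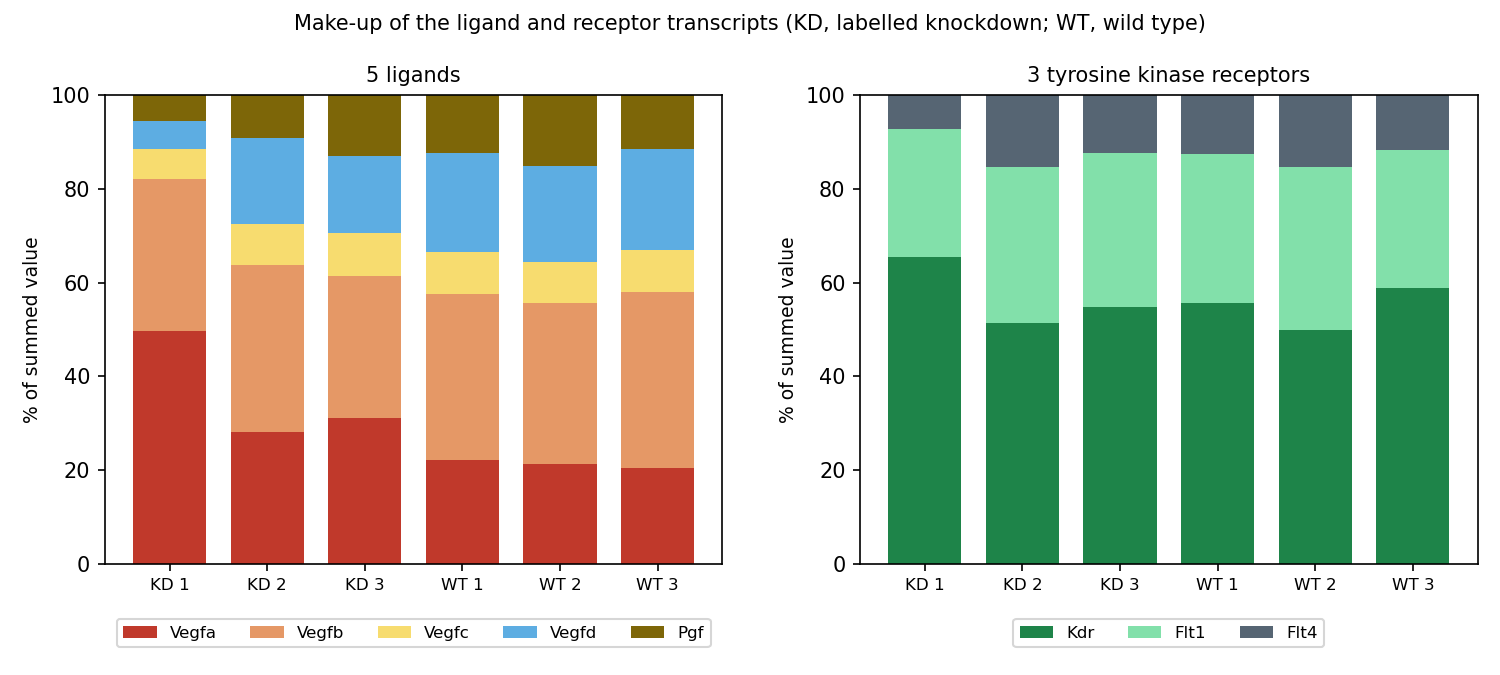
Percent of the summed value of the 5 ligands (left) and of the 3 tyrosine kinase receptors (right) taken by each gene in each library, labelled knockdown (KD) before wild type (WT). Vegfa takes 28.1% to 49.6% of the ligand sum in the libraries labelled knockdown and 20.5% to 22.1% in wild type, while the receptor shares overlap.

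Among the receptors, no member separated the groups. Kdr was at 143, 35.4 and 61.9 in the libraries labelled knockdown, against 47.8, 33.6 and 53.7 in wild type. Replicate 2 labelled knockdown lay within the wild-type range and replicate 1 far above it. The log2 difference was 0.61 (SE 0.46, 95% interval -0.48 to 1.70), and 0.08 (SE 0.28) without replicate 1 labelled knockdown.

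Flt1 was likewise highest in replicate 1 labelled knockdown. It was at 59.2, 22.99 and 36.9 in the libraries labelled knockdown, against 27.3, 23.3 and 26.8 in wild type, so its lowest and its highest library both carried the knockdown label. The log2 difference was 0.50 (SE 0.30), and 0.17 (SE 0.20) without replicate 1 labelled knockdown. Flt4 was the lowest member in every one of the 6 libraries, at 16.02, 10.6 and 13.97 in those labelled knockdown, against 10.7, 10.3 and 10.8 in wild type. Replicate 2 labelled knockdown fell within the wild-type range. The log2 difference was 0.31 (SE 0.15), and 0.18 (SE 0.14) without replicate 1 labelled knockdown, and 1 rounding step is a large part of such a gap at this level.

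The balance among the receptors overlapped between the groups. Kdr took 65.5%, 51.3% and 54.9% of the summed receptor values in the libraries labelled knockdown, against 55.7%, 49.9% and 58.8% in wild type. The ratio of the decoy-like Flt1 to the signalling receptor Kdr was 0.415, 0.650 and 0.597 in the libraries labelled knockdown, against 0.571, 0.695 and 0.499 in wild type. Vegfa over Kdr also overlapped, at 1.46, 2.06 and 1.23 in the libraries labelled knockdown, against 0.917, 1.45 and 0.655 in wild type.

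The neuropilins overlapped between the groups. Nrp1, the co-receptor of VEGF-A on blood vessels, was at 85.1, 47.1 and 66.9 in the libraries labelled knockdown, against 66.4, 51.5 and 60.4 in wild type. Nrp2, found with VEGFR3 on lymphatic vessels, was at 59.8, 33.6 and 43.9 in the libraries labelled knockdown, against 41.0, 35.6 and 47.8 in wild type. The libraries labelled knockdown enclosed the wild-type range on both sides for both genes. The log2 differences were 0.12 (SE 0.21) for Nrp1 and 0.11 (SE 0.21) for Nrp2, and without replicate 1 labelled knockdown they were -0.07 (SE 0.18) and -0.10 (SE 0.17). These 2 genes were also the closest pair in the family, with a root-mean-square difference of 0.11 between their centred log2 values over the 6 libraries. The least alike pair was Vegfa and Vegfd, at 1.07.

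**Figure D3:**
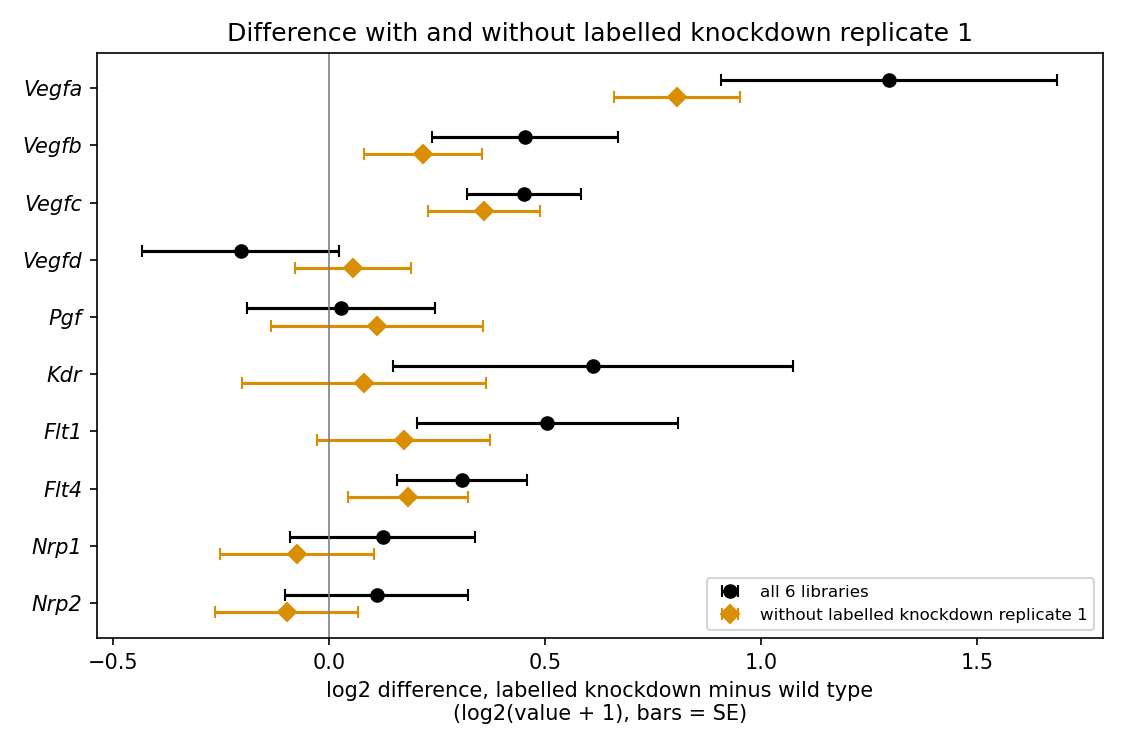
Difference on the log2(value + 1) scale (libraries labelled knockdown minus wild-type libraries) with its SE, for each member over all 6 libraries (black circles) and without replicate 1 labelled knockdown (orange diamonds). The difference of Vegfa is 1.29 and 0.80, that of Kdr 0.61 and 0.08, and those of Vegfd, Nrp1 and Nrp2 change sign.

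Counted over the family, 9 of 10 members had a higher mean in the libraries labelled knockdown, where 50.8% of all tested genes did, and 8 of 10 without replicate 1 labelled knockdown. The median log2 difference of the members was 0.38, beside 0.005 over all tested genes, and 0.14 without that library. Replicate 1 labelled knockdown was the highest library for 8 of the 10 members, and for 25.8% of all tested genes. With replicate 2 labelled knockdown left out, 6 members did not overlap, namely Vegfa, Vegfc, Kdr, Flt1, Flt4 and Nrp1, where 38.6% of all tested genes did not overlap among those 5 libraries. Without replicate 1 labelled knockdown the 2 members were again Vegfa and Vegfc, where 28.5% of genes did not overlap.

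On the deposited scale, whose correction for gene length is not stated, the order of the members differed between the groups at its upper end. In the libraries labelled knockdown the mean levels ran from Vegfa (119) and Vegfb (101) through Kdr (80.0), Nrp1 (66.3), Nrp2 (45.8), Flt1 (39.7), Vegfd (37.4), Pgf (26.4) and Vegfc (24.2) to Flt4 (13.5). In wild type they ran from Vegfb (71.2), Nrp1 (59.4), Kdr (45.0), Vegfa (42.6), Vegfd (41.97) and Nrp2 (41.5) to Pgf (26.3), Flt1 (25.8), Vegfc (17.5) and Flt4 (10.6). Vegfa had rank 1, 2 and 1 among the 10 in the libraries labelled knockdown, against rank 4, 3 and 6 in wild type. The order of the means in the libraries labelled knockdown rested in part on replicate 1. Without that library the means were 83.1 for Vegfb, 74.4 for Vegfa, 56.96 for Nrp1 and 48.6 for Kdr. Vegfb then stood above Vegfa and Nrp1 above Kdr, as in wild type. Vegfa still stood above Nrp1 and Kdr, whereas its mean in wild type was below both. Several neighbours could not be ordered, because the order did not hold in all 3 libraries of the group: in those labelled knockdown Vegfa and Vegfb, Vegfb and Kdr, Kdr and Nrp1, Flt1 and Vegfd, and Pgf and Vegfc; in wild type Kdr and Vegfa, Vegfa and Vegfd, Vegfd and Nrp2, and Pgf and Flt1.

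The receptors were read beside markers of the cells that carry them. All 15 blood endothelial markers were in the table and above 0 in every library, and 14 of them had a higher mean in the libraries labelled knockdown. Their summed level was between 1204 and 2422 in the libraries labelled knockdown and between 1308 and 1332 in wild type, highest in replicate 1 and lowest in replicate 2 labelled knockdown, as for Flt1. As a percentage of that sum, Flt1 was at 2.44, 1.91 and 2.05 in the libraries labelled knockdown, against 2.05, 1.78 and 2.02 in wild type, and Kdr was at 5.89, 2.94 and 3.43 in the libraries labelled knockdown, against 3.59, 2.57 and 4.06 in wild type. Both overlapped between the groups, and replicate 1 labelled knockdown was the highest library for each. Nrp1 was lower without overlap on this measure, at 3.51, 3.91 and 3.71 in the libraries labelled knockdown, against 4.99, 3.94 and 4.56 in wild type. The gap was 0.027 percentage points, less than the 0.080 points that 1 rounding step is worth in replicate 2 labelled knockdown. In bulk tissue, more or fewer cells of a type and more or less RNA per cell cannot be told apart.

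Vegfa was read beside heart muscle and macrophage markers as well. All 16 heart muscle markers had a higher mean in the libraries labelled knockdown, and none was at 0 in a library. Their score, the mean over the list of the log2 value minus the mean over the 6 libraries, was 1.29, 0.26 and -0.56 in the libraries labelled knockdown, against -0.33, -0.30 and -0.36 in wild type. Replicate 3 labelled knockdown had the lowest heart muscle score of all libraries and a Vegfa value of 75.9, above every wild-type library. The part of heart muscle in the Vegfa values was not tested. As a percentage of the summed heart muscle markers, Vegfa was at 0.643, 0.406 and 0.807 in the libraries labelled knockdown, against 0.388, 0.398 and 0.341 in wild type. As a percentage of the summed blood endothelial markers it was at 8.60, 6.07 and 4.21 in the libraries labelled knockdown, against 3.29, 3.72 and 2.66 in wild type. Neither measure overlapped between the groups, although replicate 2 labelled knockdown lay close to wild type relative to heart muscle. Macrophage markers had a lower mean in the libraries labelled knockdown for 14 of 14 genes, with summed levels between 4566 and 9052 there and between 9568 and 12744 in wild type, and none at 0.

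**Figure D4:**
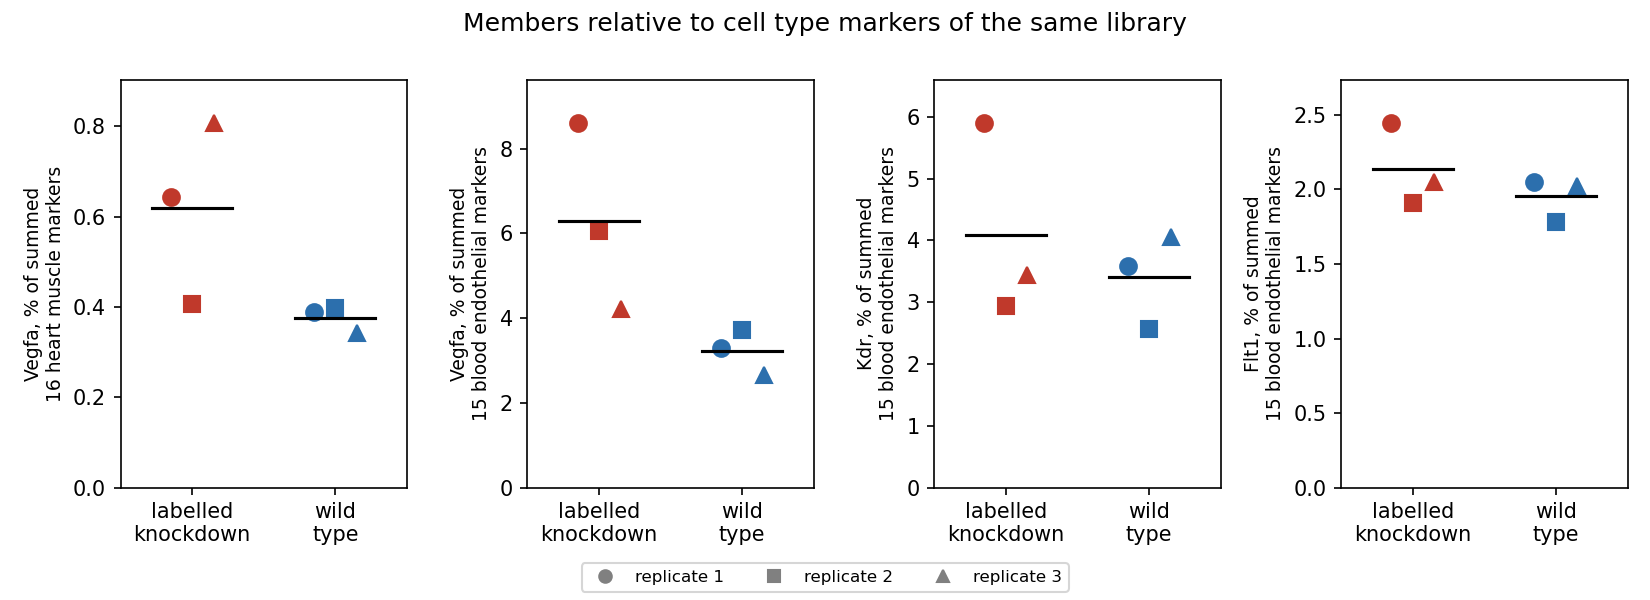
Vegfa as a percentage of the summed heart muscle markers and of the summed blood endothelial markers, and Kdr and Flt1 as a percentage of the summed blood endothelial markers, in each library (red, labelled knockdown; blue, wild type; black line, mean). Vegfa lies above wild type in all 3 libraries labelled knockdown on both measures, while Kdr and Flt1 overlap. Relative to heart muscle, replicate 2 labelled knockdown is only narrowly above, at 0.406 against 0.398 in wild-type replicate 2.

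Flt4 and Vegfc were set beside lymphatic endothelial markers, of which 8 of 8 were in the table and 7 were tested. Their summed level was between 354 and 472 in the libraries labelled knockdown and between 409 and 477 in wild type, with Reln the only marker at 0 in a library. Their score was 0.03, -0.05 and 0.26 in the libraries labelled knockdown, against -0.19, -0.12 and 0.06 in wild type, and its highest library was thus replicate 3 labelled knockdown, where Flt4 had its second highest value. Most of the summed level came from Fxyd6 and Pdpn. Mmrn1 was at 4.59, 3.85 and 6.99 in the libraries labelled knockdown, against 1.93, 1.83 and 2.65 in wild type. Ccl21a was at 6.96, 6.74 and 13.98, against 4.85, 3.66 and 6.29. In the deposited values both lay above wild type without overlap, at low levels, although Ccl21a overlapped once values were divided by the step of their library. Pdpn lay below wild type, at 57.7, 103 and 96.8, against 115, 129 and 109. Pericyte markers were higher by mean for 6 of 8 genes, with summed levels between 736 and 1155 in the libraries labelled knockdown and between 778 and 886 in wild type. Fibroblast markers were lower by mean for 7 of 11, with summed levels between 15591 and 24583 in the libraries labelled knockdown and between 21438 and 24776 in wild type. Without replicate 1 labelled knockdown, the markers higher by mean were 13 of 15 for blood endothelium, 12 of 16 for heart muscle, 4 of 7 for lymphatic endothelium, 4 of 8 for pericytes, 6 of 11 for fibroblasts and 0 of 14 for macrophages.

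Other cell types differed between single libraries. Erythroid markers summed to 2579, 346 and 1039 in the libraries labelled knockdown, against 668, 324 and 252 in wild type, highest where Vegfa, Kdr and Flt1 were highest. Adipocyte markers were lower by mean for 5 of 6 tested genes, with scores of -2.90, -2.95 and 2.07 in the libraries labelled knockdown, against 0.72, 1.89 and 1.17 in wild type, and Plin1, Cidec and Lep were at 0 in a library or more. Mesothelial and epicardial markers were lower by mean for 7 of 8, summing to 46.6, 62.3 and 193 in the libraries labelled knockdown, against 106, 149 and 129 in wild type. The high values of both lists in replicate 3 labelled knockdown stood beside a Vegfa value of 75.9, close to the 73.0 of replicate 2, where both lists were low. Neutrophil markers were lower by mean for 7 of 7 tested genes, and for 5 of 7 without replicate 1 labelled knockdown. Their summed levels overlapped, between 33.2 and 79.8 in the libraries labelled knockdown and between 48.5 and 135 in wild type. Smooth muscle markers were lower by mean for 5 of 7, with and without that library. The part of these cell types in the values of the members was not tested.

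**Figure D5:**
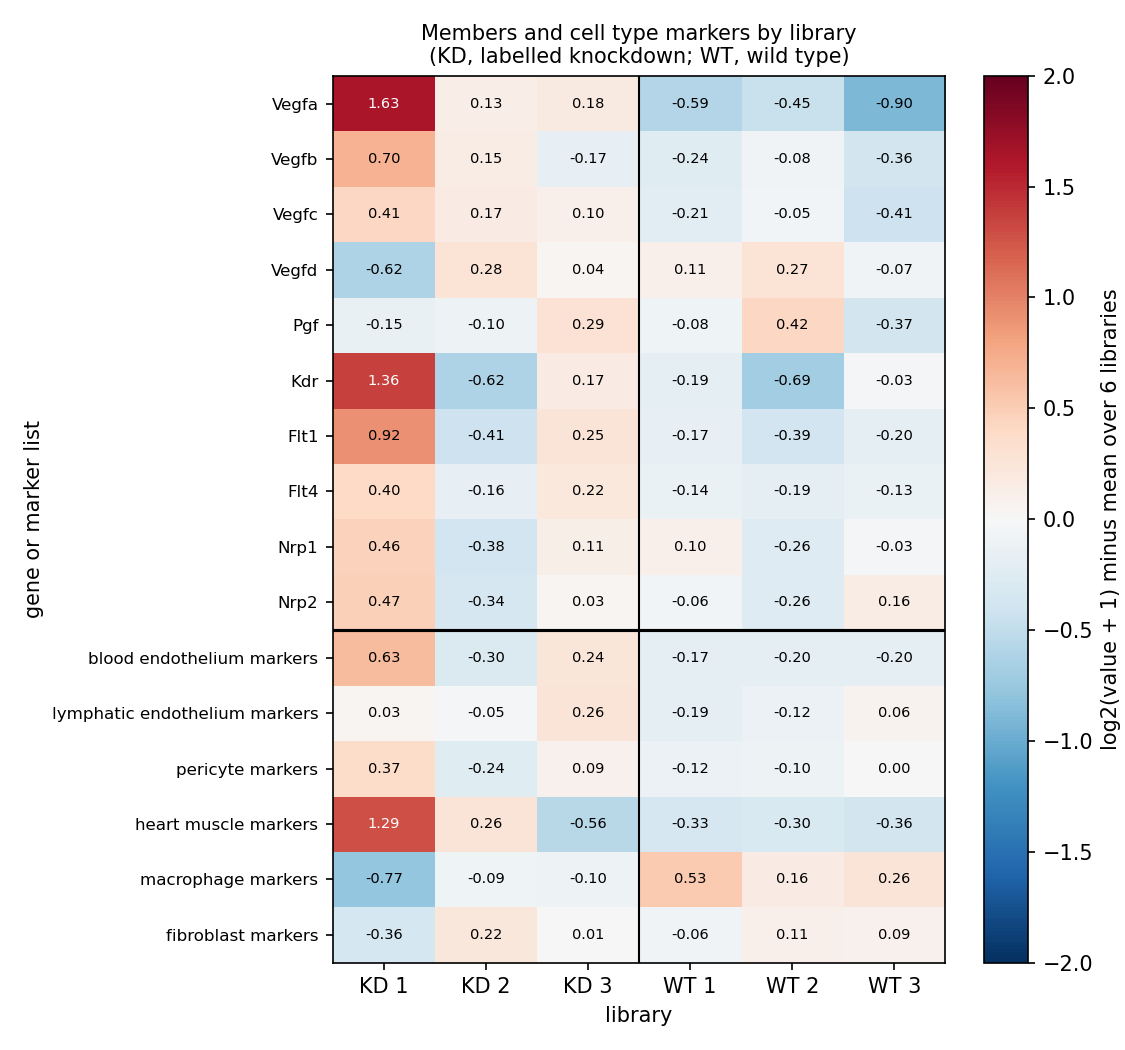
Log2(value + 1) minus the gene's mean over the 6 libraries for each member (upper 10 rows) and the mean of the same over each marker list (lower 6 rows), by library, with red above and blue below the mean. Vegfa stands at 1.63, 0.13 and 0.18 in the libraries labelled knockdown and at -0.59, -0.45 and -0.90 in wild type, and Kdr, Flt1 and the blood endothelial row are all highest in replicate 1 labelled knockdown.

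By root-mean-square difference of centred log2 values over the 6 libraries, among 10893 genes averaging 5 or more, the genes closest to Flt1 were Adgrf5 (0.02), Zfp366 (0.06), Fgd5 (0.06), Timeless (0.06) and Kif26a (0.08). Adgrf5, an adhesion receptor gene of endothelium, was at 91.4, 34.5 and 57.9 in the libraries labelled knockdown, against 41.97, 36.5 and 41.2 in wild type. The closest to Kdr were Cavin2 (0.12), Efr3b (0.14), Dok4 (0.15), Mgll (0.15) and Cd36 (0.16). Among the closest to Vegfa were Rbm20 (0.16), which encodes a splicing factor of heart muscle, Slc47a1 (0.16), Slc38a3 (0.18) and the cardiac troponin gene Tnni3 (0.20). Rbm20 was at 34.99, 16.3 and 12.98 in the libraries labelled knockdown, against 8.77, 9.35 and 6.84 in wild type.

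Other genes of the pathway, 126 distinct genes that are no members, were 65 higher and 61 lower by mean (median log2 difference 0.02). Of these, 0 passed limma's test over all genes in either direction. Before adjustment, 5 were higher and 12 lower at a limma p under 0.05, where 8.29% of all tested genes were higher and 6.55% lower. The genes named from each list are those with the smallest p in this same comparison. Of 23 hypoxia-induced genes, the class to which Vegfa belongs, 10 had a higher and 13 a lower mean (median -0.08). Ankrd37 was at 27.2, 16.4 and 20.96 in the libraries labelled knockdown, against 9.72, 12.1 and 8.74 in wild type, and the histone demethylase gene Kdm3a was at 23.1, 25.1 and 23.95 in the libraries labelled knockdown, against 16.6, 18.7 and 15.1 in wild type. Both lay above wild type without overlap in the deposited values, although Kdm3a overlapped once values were divided by the step of their library, whereas the glycolytic gene Eno1 lay below it (log2 difference -0.38, SE 0.14). Genes of oxygen sensing and transcription of Vegfa were 7 higher and 7 lower of 14 (median 0.02). The hypoxia-inducible factor gene Hif1a was at 96.8, 102 and 83.8 in the libraries labelled knockdown, against 106, 101 and 152 in wild type. These deposited values overlapped, but once divided by the step of their library Hif1a lay below wild type, by 1.32 steps. The groups overlapped on both scales for the coactivator gene Ppargc1a (0.63, SE 0.35) and the prolyl hydroxylase gene Egln1 (0.28, SE 0.18). Of 7 genes that bind Vegfa mRNA or related transcripts and set their stability, 5 were higher and 2 lower (median 0.07), with log2 differences of -0.24 for Zfp36l2, 0.25 for Auh and 0.13 for Hnrnpl. Without replicate 1 labelled knockdown, 53 of the 126 genes were higher and 73 lower by mean (median -0.03), and the medians were -0.05 for the hypoxia-induced genes (10 of 23 higher), -0.05 for oxygen sensing (6 of 14) and 0.02 for mRNA stability (5 of 7). Without that library the log2 difference was 0.29 for Ppargc1a, 0.08 for Egln1 and 0.15 for Auh.

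Downstream of the receptors, 12 of 25 signalling genes were higher and 13 lower by mean (median -0.03). Among those with the smallest p, lower without overlap were the kinase gene Src (log2 difference -0.40, SE 0.14) and the phosphoinositide kinase subunit gene Pik3r1 (-0.27, SE 0.11). Of 15 genes that VEGF induces in endothelium, the member Pgf among them, 11 were higher and 4 lower (median 0.09). Esm1, a gene of endothelial tip cells, was at 21.03, 19.2 and 16.96 in the libraries labelled knockdown, against 22.5, 22.6 and 29.99 in wild type, lower without overlap, and Angpt2, which loosens vessel walls, overlapped (-0.46, SE 0.17). The nuclear receptor gene Nr4a2 was higher without overlap (0.54, SE 0.15). Among receptor partners, 9 of 13 were higher (median 0.04), while the integrin gene Itgb3 (-0.57, SE 0.16) and the receptor phosphatase gene Ptprj (-0.56, SE 0.18) were lower without overlap and Dab2 overlapped (-0.27, SE 0.14). Without replicate 1 labelled knockdown the medians were -0.02 for the signalling genes (10 of 25 higher), 0.02 for the VEGF-induced genes (8 of 15) and -0.06 for the receptor partners (5 of 13), and Dab2 was at -0.18. Pik3r1 overlapped once values were divided by the step of their library, whereas Angpt2 then lay below wild type, by 0.03 steps.

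Genes that process VEGF-C and VEGF-D were 2 higher and 8 lower of 10 (median -0.27), with the proprotein convertase gene Furin at 36.4, 46.2 and 42.9 in the libraries labelled knockdown, against 52.8, 46.95 and 56.2 in wild type. The urokinase gene Plau (-0.43, SE 0.19) was also lower without overlap. The cathepsin gene Ctsd (-0.55, SE 0.26) overlapped in the deposited values, but lay below wild type without overlap once values were divided by the step of their library. Of 10 genes that trap VEGF in the matrix or release it, 4 were higher and 6 lower (median -0.15), among them the protease genes Mmp14 (-0.57, SE 0.21) and Mmp9 (-1.35, SE 0.53) and the thrombospondin gene Thbs2 (-0.63, SE 0.27). In the deposited values Mmp14 did not overlap, whereas Mmp9 and Thbs2 did. With values divided by the step of their library, Mmp9 lay below wild type by 0.01 steps. Mmp9 was near the floor, at 0.112, 0.928 and 2.99 in the libraries labelled knockdown, against 2.93, 2.82 and 8.38 in wild type. Its difference therefore rests on a few rounding steps. Semaphorins and plexins, which share the neuropilins with VEGF, were 7 higher and 4 lower of 11 (median 0.19). Sema3d (0.31, SE 0.11) and Sema3c (0.28, SE 0.11) lay above wild type and Plxna1 (-0.29, SE 0.11) below it, each without overlap in the deposited values. The gaps were narrow, at 1.02 for Sema3d, 0.579 for Sema3c and 0.594 for Plxna1, and with values divided by the step of their library Sema3d and Sema3c overlapped. Without replicate 1 labelled knockdown the median was -0.09 for the processing genes (1 of 10 higher), -0.19 for the matrix genes (3 of 10) and 0.08 for semaphorins and plexins (7 of 11). Without that library the log2 difference was -0.20 for Plau, -0.32 for Ctsd and -0.35 for Mmp14.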

How the data were processed

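The authors deposited 1 table of 16205 rows, each with a symbol and 6 values, 1 per library. It is named TPM, but the deposited values are treated as an adjusted score: columns sum to between 901558 and 1159651, and low values come in steps of a different size in each library. Per the submitters' processing notes the build was mm10; aligner, quantifier and adjustment are not stated in these sources. There are no counts, so the depth is unknown and no interval for counting error is given. For 6 repeated symbols the row with the lower mean was left out. The fit used log2(value + 1) of the 14025 genes averaging 1 or more, which all 10 members did, with limma 3.58.1 (R 4.3.3), an intensity trend, no covariate and Benjamini-Hochberg adjustment over all genes at 0.05. This fit, planned for TPM, was kept for the adjusted score, and its suitability for that score was not tested. Named are all members, Itih5, the 3 genes with the smallest p of each pathway list, and the 5 genes closest in pattern to Vegfa, Kdr and Flt1; 2 genes that this rule takes are not reported here. Members and lists were chosen with earlier results of these data known. Alternatives covered pseudocount, filter, scaling, trend, weights, replicate block and each library left out.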

Additional observations from a re-analysis of the deposited data

How the results depend on the processing

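The number of members called was 0 under all 17 alternatives. The number of genes lower in the libraries labelled knockdown, 0 with all libraries, was between 0 and 13 with 1 library left out: 13 without replicate 3 labelled knockdown and 2 without wild-type replicate 2. The number of members without overlap, 2 with all libraries, was between 2 and 6 with 1 library left out, the highest without replicate 2 labelled knockdown, where 38.6% of all tested genes did not overlap; over the other libraries left out that share was 28.5% to 38.3%. The median log2 difference of the members ranged from 0.14 (without replicate 1 labelled knockdown) to 0.47. Vegfa stayed between 0.80 and 1.55, Vegfc between 0.31 and 0.54 and Kdr between 0.08 and 1.07. Signs changed for Vegfd in 1 alternative, for Pgf in 4 and for Nrp1 and Nrp2 in 3 each, rescaling every library to a sum of 1000000 among them for Pgf, Nrp1 and Nrp2. That rescaling moved the median of all genes to -0.13, so that Nrp1 (-0.02) and Nrp2 (-0.03) stood above it. With the replicate number as a block, 0 genes were called in either direction and the log2 difference of Vegfa was 1.29 (SE 0.29). The labels give a replicate number but do not say that same-numbered libraries were paired. Deviations from the group means correlated at 0.06, 0.06 and 0.14 for same-numbered libraries and between -0.11 and 0.06 for the other pairs. Whether same-numbered libraries belong together cannot be told from these values. Precision at low levels is limited by the rounding step.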
